A study of Bos taurus with 4 samples.

Results

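The genes described here drive and carry out cell division: cyclins and their kinases, the polo and aurora kinases, the spindle checkpoint and kinetochore, the machinery of anaphase onset and cytokinesis, and the proteins that shape mitotic chromosomes. They were taken as a list of 51 gene symbols by function, with no rule on measured values, though earlier results of these data were known when the list was made, and the brightest probe of each stood for the gene. Of the 51, 49 had a probe under their symbol, and 47 had one above background in at least 4 of the 8 channel signals, out of 12145 named genes that met that condition. Symbols for TTK and CENPA, a checkpoint kinase and the centromeric histone, had no probe. The single probe of CCND1 (cyclin D1) was above background in 2 of 8 signals and that of ANLN (anillin, a scaffold of the cleavage furrow) in 3 of 8, so both were left out.

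The comparison asks whether embryo transcripts differ with how old a young bull was when its semen was collected. Bovine blastocysts were made entirely in vitro, from oocytes of slaughterhouse ovaries, with semen that 4 bulls gave at 12 months and again at 16 months of age. On each of 4 two-colour arrays, RNA of embryos from 12-month semen was hybridised against RNA of embryos from 16-month semen, with the dyes exchanged between arrays. Arrays 1 and 2 had the 12-month RNA in Cy5, and arrays 3 and 4 had it in Cy3. Nothing else distinguishes the groups in the labels, and no untreated or adult-bull group was used here. The labels call the arrays biological replicates but do not say which bull, or how many embryos, stands behind an array. Age goes with the time of collection, and the oocyte donors are not described. Whole blastocysts mix trophectoderm and inner cell mass, so fewer cells of a type and less RNA per cell cannot be told apart.

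Progress through the cell cycle depends on cyclins, which are made and destroyed in each cycle, and on the cyclin-dependent kinases that they switch on. D and E type cyclins with CDK4, CDK6 and CDK2 release E2F factors from RB1 and start DNA replication, while cyclins A and B with CDK1 drive the cell into mitosis. The spindle checkpoint holds cells before anaphase until every kinetochore is attached, and the anaphase-promoting complex then marks cyclin B and securin for destruction. In cattle embryos the zygotic genome takes over from oocyte stores during the cleavage divisions, and by the blastocyst stage the embryo divides on its own transcripts.

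Ratios are given as log2 of 12 over 16 months, so a negative value is a lower signal with 12-month semen. The figure after ± is the SD over the 4 arrays. Of 20 trophectoderm markers 19 had a probe, all 19 of them above background in at least 4 of 8 signals. Of the 12 inner cell mass markers with a probe, 10 met the same condition, as did 30986 of all 43794 probes. Of markers of other cells, 13 of the 15 oocyte markers with a probe, 7 of 15 cumulus and granulosa markers and 9 of 13 sperm markers met it too. Meeting the condition thus did not set the labelled tissue apart from the oocyte. DPPA3 was counted in both the inner cell mass and the oocyte list. HAS2, AMH and FOXL2 of cumulus and granulosa cells, and GDF9 and ZAR1 of the oocyte, were above background in 0 of 8 signals. Of all probes, 69.5% to 72.4% were above background in the Cy5 channel, and 63.3% to 66.6% were in the Cy3 channel. Precision is limited by the number of arrays: the 95% confidence interval of a probe reached a median of 0.29 to either side of its log2 ratio.

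None of the 47 genes differed between the 2 ages in limma's test after Benjamini-Hochberg adjustment over all 30986 tested probes, where the share of probes called was 0%. The smallest adjusted p of any of the 47 was 0.969 (limma), and that of any probe on the array was 0.448. Before adjustment, 1277 probes of the array were under 0.05. At that unadjusted level, 3 of the 47 genes were counted, against 4.34% of all genes. These were CCNA2, CCNB1 and CENPF, all with negative ratios. Leaving out 1 array could bring calls: 44 probes passed without array 3 and 385 without array 4, against 0 without array 1 or array 2.

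The ratios of the division genes were small and leaned to the negative side. A mean ratio below 0 was found for 31 of the 47 genes and above 0 for 16, that is 66.0% below 0 against 49.6% of all genes. Their median was -0.075, beside 0.0012 over all genes. The 47 genes were brighter, with a median log2 intensity of 10.26 against 8.36 over all genes. No comparison with genes of like intensity was made. The lowest mean was -0.44 for CCNA2 and the highest 0.32 for INCENP. The median SD over arrays was 0.29 and the median size of a mean ratio 0.10, so a typical gene of the list varied between arrays by more than its mean ratio. For 43 of the 47 genes the 95% confidence interval lay within 1.5-fold in either direction, as it did for 90.6% of all genes. The exceptions were E2F1, CCNA2, CKS1B and INCENP, for which a difference of 1.5-fold lies inside the interval.

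**Figure D1:**
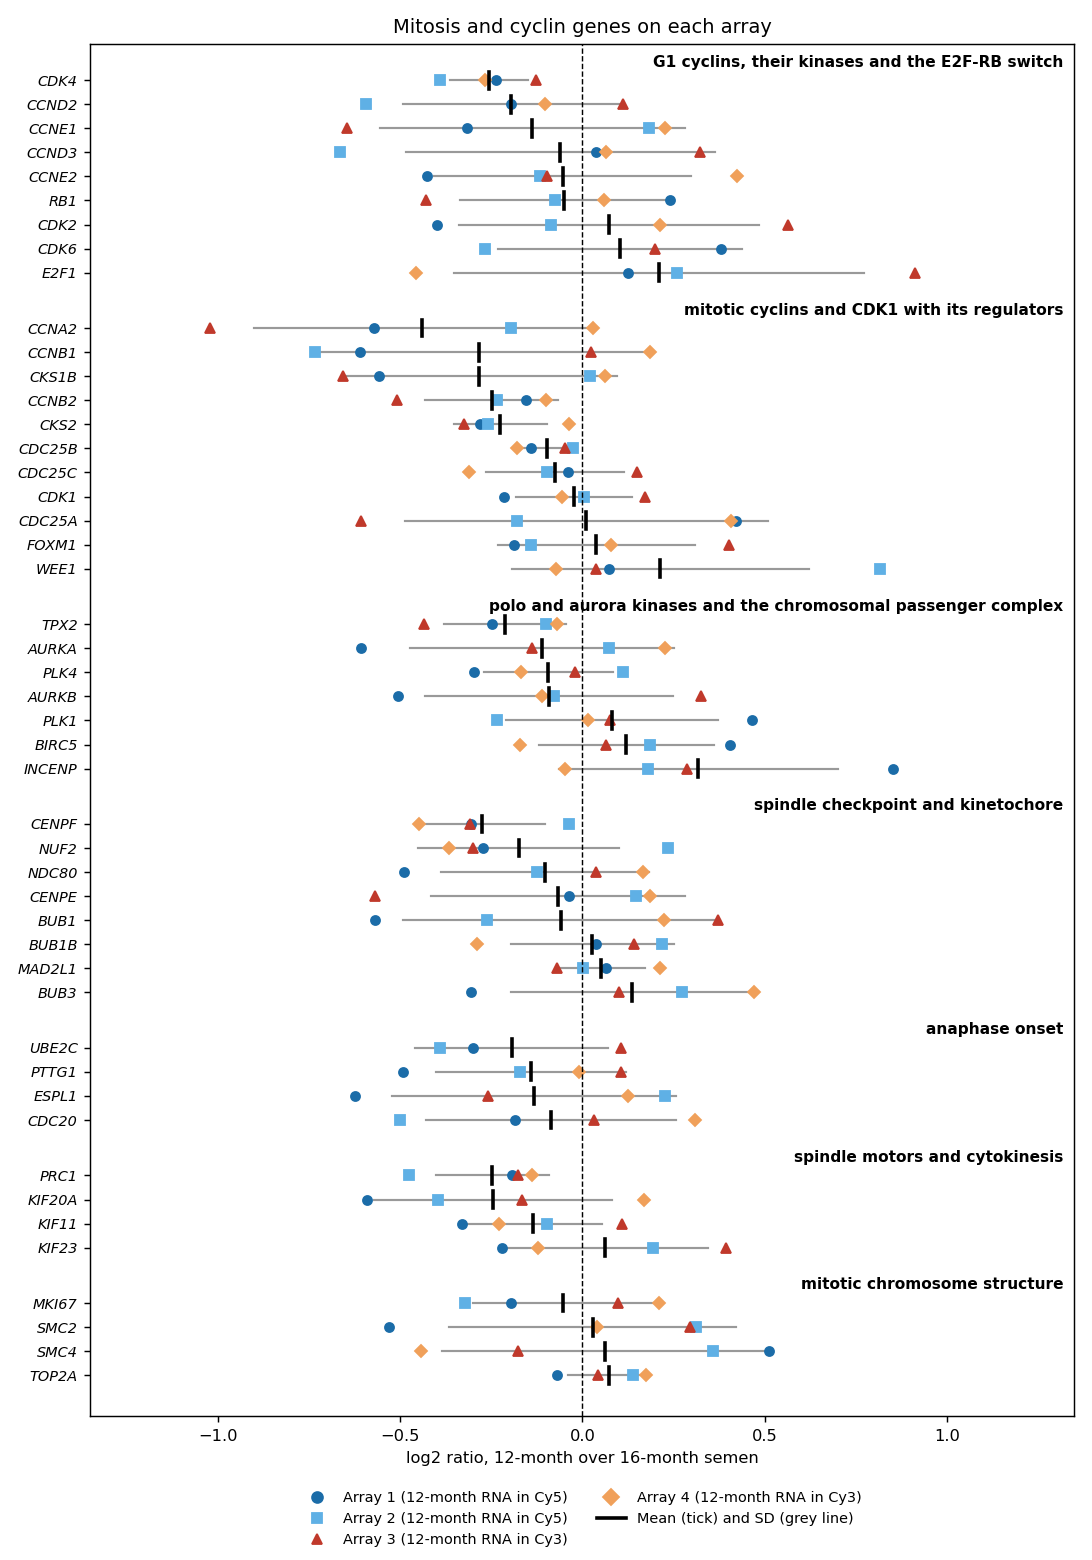
Log2 ratio of 12 over 16 months for the 47 genes, grouped by role, with a point for each array, a black tick at the mean and a grey line over ± 1 SD. Most points scatter on both sides of 0, and 7 genes have every array below 0.

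A ratio below 0 on all 4 arrays was found for 7 of the 47 genes, against 5.44% of all genes. The 7 were CDK4, CCNB2, CKS2, CDC25B, TPX2, CENPF and PRC1. None of the 47 was above 0 on all 4 arrays, against 4.57% of all genes. Counts of this kind moved with the processing: 4 genes were below 0 on every array with mean in place of median pixels, and 4 with median centring in place of loess. With the mean over all probes of a gene, 6 were. Of the 7, CENPF and CKS2 were among the 4 with mean pixels, and CDK4 and TPX2 among the 4 with median centring.

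The genes of the G1 phase and its exit had 6 of 9 mean ratios below 0, with a group median of -0.054. CDK4, the kinase partner of D type cyclins, had ratios of -0.24, -0.39, -0.13 and -0.27 on arrays 1 to 4. Its normalised log2 intensities were 10.99, 11.38, 11.37 and 10.91 at 12 months, and 11.22, 11.77, 11.49 and 11.18 at 16 months. The 12-month channel was the dimmer one on every array, while the levels of the 2 ages overlapped across arrays. The mean was -0.26 ± 0.11, with a 95% interval from -0.52 to 0.010. Another CDK4 probe gave a mean of -0.21 ± 0.39 from ratios of -0.64, -0.44, 0.0013 and 0.21, with only arrays 1 and 2 clearly below 0. CCND2, one of the D cyclins that CDK4 binds, had ratios of -0.20, -0.59, 0.11 and -0.10 and a mean of -0.19 ± 0.30. CCND3, a further D cyclin, averaged -0.061 ± 0.42.

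E2F1 encodes the activating transcription factor that RB1 holds back until late G1, and it varied more over the arrays than any other gene of the list. Its ratios were 0.13, 0.26, 0.91 and -0.46, a span of 1.37, and its mean was 0.21 ± 0.56. RB1 itself averaged -0.051 ± 0.28. The E cyclins, which act with CDK2 at the start of replication, gave -0.14 ± 0.42 for CCNE1 and -0.054 ± 0.35 for CCNE2. CDK2 had ratios of -0.40, -0.085, 0.56 and 0.21, below 0 on arrays 1 and 2 and above 0 on arrays 3 and 4, for a mean of 0.073 ± 0.41. Its other probes gave -0.011 and -0.20, the latter below 0 on all 4 arrays, so the direction for CDK2 depends on the probe. CDK6, a kinase related to CDK4, was measured on 3 arrays because the scanner software had marked its spot on array 4 as ignored, and averaged 0.10 ± 0.33 (n = 3).

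Among the mitotic cyclins, CDK1 and its regulators, 8 of 11 mean ratios were below 0 and the group median was -0.098. CCNA2, the A cyclin used in replication and in entry to mitosis, had the lowest mean of the list. Its normalised log2 intensities were 11.85, 12.48, 12.00 and 12.41 at 12 months and 12.42, 12.67, 13.02 and 12.38 at 16 months. The corresponding ratios were -0.57, -0.20, -1.02 and 0.030, below 0 on arrays 1 to 3 and near 0 on array 4. The mean was -0.44 ± 0.46, with a 95% interval from -0.83 to -0.047 and an adjusted p of 0.969 (limma).

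The value for CCNA2 rests on particular arrays and on 1 probe. Its mean over the other arrays was -0.25 without array 3 and -0.60 without array 4. The fitted ratio, in which the lone array of a dye orientation weighs as much as the other two together, was -0.18 without array 3. Without array 4 the fitted ratio was -0.70 with an adjusted p of 0.0273 (limma), and no other gene of the list passed in that fit. There array 3 alone stands for its dye orientation and is assumed to vary like arrays 1 and 2. A dimmer CCNA2 probe, above background in 6 of 8 signals, had ratios of -0.46, -0.43, 0.74 and 0.19 and a mean of 0.0089 ± 0.57. The 2 probes had the same sign on arrays 1, 2 and 4 and opposite signs on array 3.

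CCNB1, the cyclin whose destruction lets cells leave mitosis, split by dye orientation with loess but not with median centring. With median centring its ratios were -0.12, -0.32, -0.39 and -0.40 on arrays 1 to 4. With loess they were -0.61 and -0.73 on arrays 1 and 2, and 0.024 and 0.18 on arrays 3 and 4. Normalised log2 intensities were 13.03, 13.45, 13.89 and 13.56 at 12 months and 13.64, 14.18, 13.87 and 13.38 at 16 months. The mean was -0.28 ± 0.46, with a 95% interval from -0.55 to -0.018. That interval is narrower than the SD would give because the fit takes the dye difference out of the spread. CCNB2, the other B cyclin measured, was below 0 on every array with loess. Its ratios were -0.15, -0.23, -0.51 and -0.10, with a mean of -0.25 ± 0.18. Its 95% interval ran from -0.53 to 0.033.

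CDK1, the kinase that both B cyclins switch on, averaged -0.023 ± 0.16, with ratios from -0.21 to 0.17 and no common direction. The small CKS proteins bind cyclin-dependent kinases and help them to phosphorylate multisite substrates. CKS2 had ratios of -0.28, -0.26, -0.32 and -0.037, for a mean of -0.22 ± 0.13 and a 95% interval from -0.50 to 0.046. CKS1B gave -0.56, 0.020, -0.66 and 0.063, with 2 arrays well below 0 and 2 just above it, and a mean of -0.28 ± 0.38.

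The CDC25 phosphatases remove the inhibitory phosphates that WEE1 places on CDK1. CDC25B had the narrowest spread of all 47 genes, with ratios of -0.14, -0.026, -0.046 and -0.18 spanning 0.15 and a mean of -0.098 ± 0.073. One other CDC25B probe averaged -0.18 ± 0.24 and another 0.10 ± 0.35, so the sign was not shared by its 3 probes. CDC25C averaged -0.075 ± 0.19 and CDC25A 0.010 ± 0.50. WEE1 averaged 0.21 ± 0.41, but only array 2 was far from 0, with 0.82 against -0.072 to 0.074 on the other arrays. FOXM1, a transcription factor that acts on many genes of the G2 and M phases, averaged 0.039 ± 0.27 and was above background in 5 of 8 signals.

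**Figure D2:**
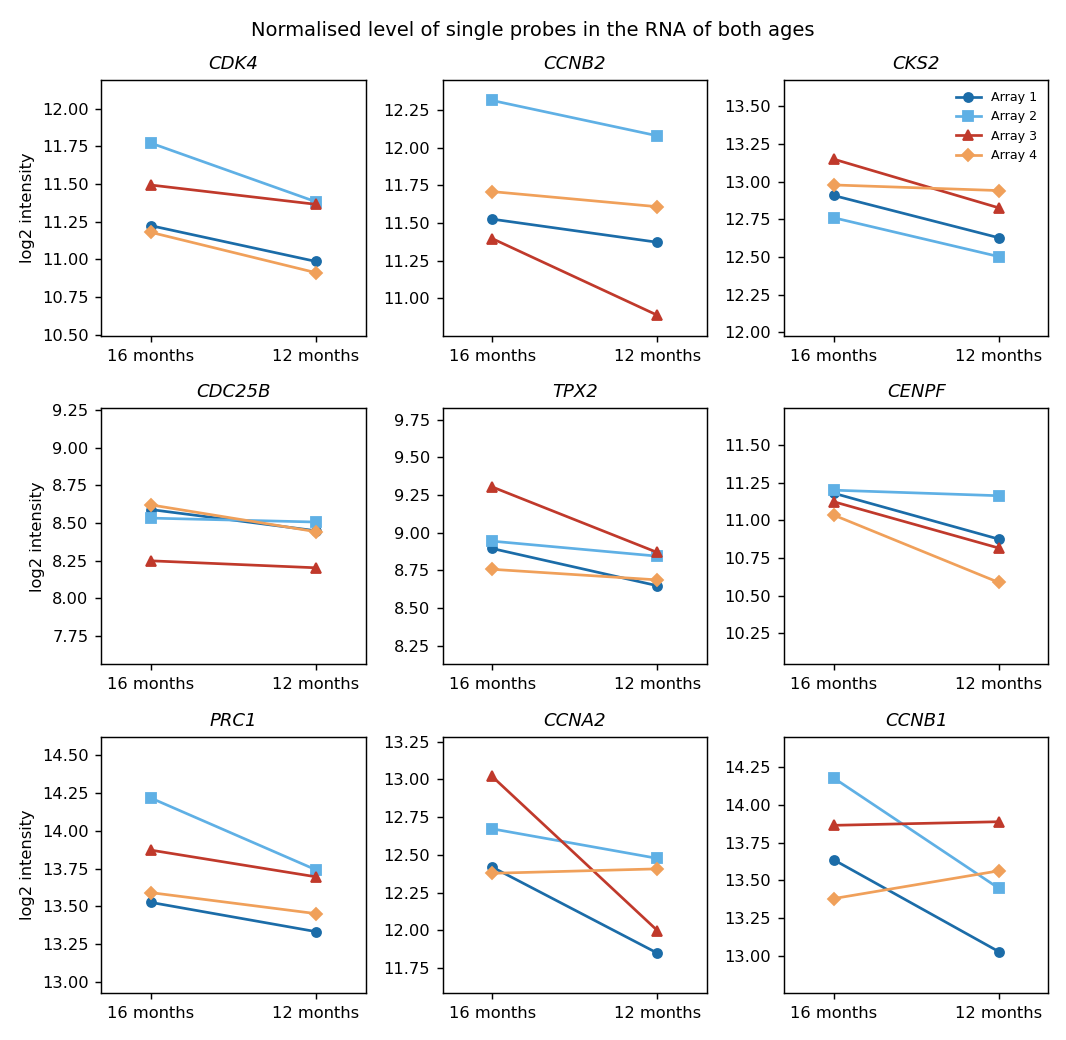
Normalised log2 intensity of 9 genes (the 7 below 0 on all 4 arrays, CCNA2 and CCNB1) at 16 and 12 months, with a line joining the 2 channels of each array. For CDK4 and CENPF every line runs lower at 12 months, while for CCNB1 the lines of arrays 1 and 2 and those of arrays 3 and 4 run in opposite directions.

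Of the polo and aurora kinases and the chromosomal passenger complex, 4 of 7 mean ratios were below 0, with a group median of -0.092. INCENP, the scaffold that holds AURKB at the inner centromere, had the highest mean of the list. Its ratios were 0.85, 0.18, 0.29 and -0.048, above 0 on 3 arrays and led by array 1. The probe was dim, with a mean log2 intensity of 7.48 against a median of 10.26 over the 47 genes. It was above background in 7 of 8 signals, and its normalised 16-month level on array 1 was 6.78. The mean was 0.32 ± 0.38, with a 95% interval from -0.0088 to 0.65. BIRC5 (survivin), another subunit of the complex, averaged 0.12 ± 0.24, and its further probe gave 0.15 ± 0.11 with all 4 arrays above 0. AURKB, the kinase of the complex, averaged -0.092 ± 0.34. Its further probes gave -0.075 ± 0.15 and -0.21 ± 0.13, the latter below 0 on every array.

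TPX2 activates AURKA on spindle microtubules and had ratios of -0.25, -0.10, -0.44 and -0.070. All 4 arrays were below 0, and the mean was -0.21 ± 0.17 with a 95% interval from -0.49 to 0.067. AURKA averaged -0.11 ± 0.36, with a ratio of -0.61 on array 1 and of 0.23 on array 4. PLK1, which acts at centrosomes, kinetochores and the midzone, averaged 0.081 ± 0.29, and its further probe gave the opposite sign at -0.13 ± 0.18. PLK4, the kinase of centriole duplication, averaged -0.094 ± 0.18.

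The spindle checkpoint and the kinetochore had 8 of their 10 genes measured, 5 of them below 0, with a group median of -0.063. CENPF, a large protein that joins the outer kinetochore in G2, had ratios of -0.31, -0.037, -0.31 and -0.45. Normalised log2 intensities were 10.88, 11.16, 10.82 and 10.59 at 12 months and 11.18, 11.20, 11.12 and 11.04 at 16 months. Array 2 had nearly equal channels, and the other arrays were lower at 12 months. The mean was -0.27 ± 0.17, with a 95% interval from -0.55 to -0.0019. NUF2 and NDC80 belong to the complex that binds microtubule ends. NUF2 had ratios of -0.27, 0.23, -0.30 and -0.36 with array 2 on the other side of 0, for a mean of -0.18 ± 0.28. NDC80 averaged -0.10 ± 0.28.

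The transcripts of the checkpoint proteins had mean ratios from -0.058 to 0.14. MAD2L1, whose protein sequesters CDC20 while kinetochores are free, averaged 0.052 ± 0.12, with ratios from -0.068 to 0.21. BUB1 averaged -0.058 ± 0.44 and BUB1B 0.026 ± 0.22. For BUB1, arrays 1 and 2 gave -0.57 and -0.26 and arrays 3 and 4 gave 0.37 and 0.22, a split by dye orientation. BUB3, which docks both of these proteins at kinetochores, averaged 0.14 ± 0.33, and its further probe 0.24 ± 0.099 with ratios of 0.33, 0.32, 0.19 and 0.13. Both BUB3 probes were thus positive on average, though the brighter one had a ratio of -0.30 on array 1. The further probe was far dimmer, at a mean log2 intensity of 7.23 against 14.49. CENPE, a kinesin of the kinetochore, averaged -0.068 ± 0.35.

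All 4 genes of anaphase onset had a mean ratio below 0, with a group median of -0.14, and none was below 0 on every array. PTTG1 (securin), the inhibitor that is destroyed at anaphase, had ratios of -0.49, -0.17, 0.11 and -0.0092 and a mean of -0.14 ± 0.26. ESPL1 (separase), the protease that securin holds back, had ratios of -0.62, 0.23, -0.26 and 0.12, which alternated in sign, and a mean of -0.13 ± 0.39. CDC20, the activator of the anaphase-promoting complex, averaged -0.086 ± 0.34 with ratios of -0.18, -0.50, 0.033 and 0.31. UBE2C, the ubiquitin-conjugating enzyme of that complex, was measured on arrays 1 to 3 and gave -0.30, -0.39 and 0.11. Its mean was -0.19 ± 0.26 (n = 3), and the fitted ratio with the dye term was -0.12. In this group 4 of 4 genes were below 0 on array 1, 3 of 4 on array 2 and 1 of 4 on array 3.

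Of the spindle motors and cytokinesis genes, 3 of 4 mean ratios were below 0, with a group median of -0.19, the lowest of the 7 role groups. PRC1, which bundles the microtubules of the spindle midzone, had ratios of -0.19, -0.48, -0.18 and -0.14. Its normalised log2 intensities were 13.33, 13.74, 13.69 and 13.45 at 12 months and 13.53, 14.22, 13.87 and 13.59 at 16 months. The 12-month channel was the dimmer one on every array, by the most on array 2. The mean was -0.25 ± 0.15, with a 95% interval from -0.52 to 0.024. KIF20A, a kinesin of the midzone, had ratios of -0.59, -0.40, -0.16 and 0.17 and a mean of -0.25 ± 0.33. KIF11, the motor that pushes spindle poles apart, averaged -0.14 ± 0.19, and KIF23, a motor of the central spindle, 0.061 ± 0.28.

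The genes of mitotic chromosome structure had 1 of 4 mean ratios below 0, and a group median of 0.046. TOP2A, the topoisomerase that untangles sister DNA, had ratios of -0.070, 0.14, 0.043 and 0.18, which span 0.25, and a mean of 0.072 ± 0.11. SMC4, a core subunit of condensin, had ratios of 0.51, 0.36, -0.18 and -0.44, above 0 in one dye orientation and below it in the other, and a mean of 0.062 ± 0.45. SMC2, its partner, averaged 0.029 ± 0.39, with further probes at -0.18 and 0.14. MKI67, the protein known as a proliferation marker, averaged -0.053 ± 0.25.

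How far the list leaned to the negative side differed between arrays. On arrays 1 to 4 the median of the division genes was -0.22, -0.085, 0.037 and 0.016, against -0.0085, 0.022, -0.021 and 0.00073 for all genes. On array 1, 35 of 47 genes were below 0, on array 2 28 of 47, on array 3 21 of 47 and on array 4 22 of 45. All genes were below 0 at 51.3%, 46.7%, 52.1% and 49.9%. Arrays 1 and 2 therefore carried the negative median, and arrays 3 and 4 had medians slightly above 0. Array 1 was the lowest of the arrays for 17 of the 47 genes, and each other array for 10. With plain means of the other arrays, the median of the list was -0.047 without array 1, -0.065 without array 2, -0.10 without array 3 and -0.11 without array 4, with 28, 30, 34 and 32 genes below 0. The fitted ratios, which weigh both dye orientations equally, gave -0.034, -0.11, -0.080 and -0.080, with 27, 34, 34 and 29 genes below 0.

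**Figure D3:**
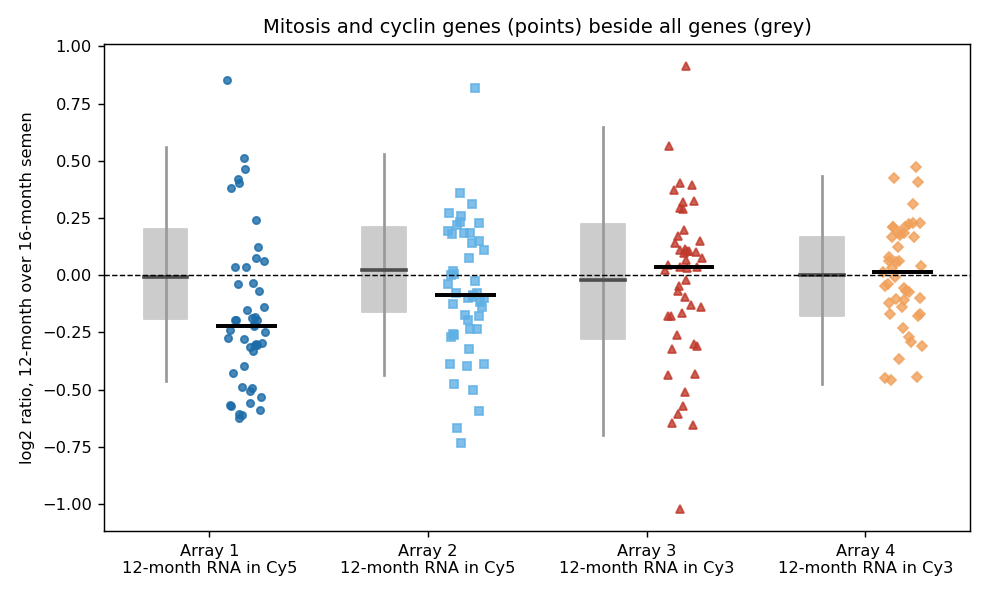
Distribution of log2 ratios of 12 over 16 months on each array, with points for the division genes, black lines at their medians, and in grey the quartiles (box), the median and the 5th to 95th percentile (line) of all genes. The medians of the division genes are -0.22, -0.085, 0.037 and 0.016 on arrays 1 to 4, and those of all genes lie within 0.022 of 0.

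Averaged by dye orientation, the median of the 47 genes was -0.17 on arrays 1 and 2, where the 12-month RNA was in Cy5, and 0.0053 on arrays 3 and 4, where it was in Cy3. All genes had medians of 0.013 and -0.0091. Below 0 were 34 genes in the first orientation and 22 in the second. Both means were below 0 for 15 genes and both above 0 for 6, while 19 were below 0 on arrays 1 and 2 alone and 7 on arrays 3 and 4 alone. As shares of the list these are 31.9%, 12.8%, 40.4% and 14.9%, beside 21.5%, 22.0%, 26.5% and 29.9% of all genes. Arrays of the 2 orientations also hold different replicates, so dye and replicate cannot be told apart in this split. The split was computed with loess only.

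**Figure D4:**
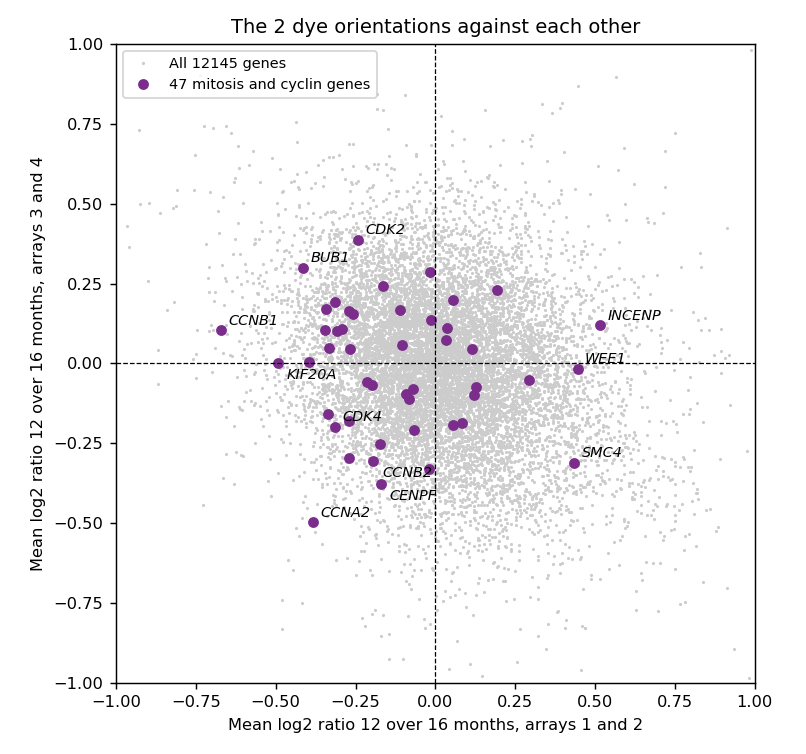
Mean log2 ratio of 12 over 16 months on arrays 1 and 2 (horizontal axis) against that on arrays 3 and 4 (vertical axis), with all genes in grey and the 47 division genes in purple. Most division genes lie left of 0, and they lie on both sides of 0 vertically; 38 genes beyond 1 on either axis are not drawn.

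Replicate arrays shared little of the pattern within the list. Across the 47 genes, Pearson's r between the ratios of arrays 1 and 2 was 0.20, beside 0.34 across all genes, and the sign was shared by 30 of 47. The other pairs gave r from -0.25 for arrays 1 and 4 to 0.12 for arrays 1 and 3, with 21 to 25 genes of one sign. Across all genes those pairs ranged from -0.22 to -0.079. These are correlations across genes on arrays that share a platform and a normalisation, and genes are not independent replicates. The range of a gene over the arrays had a median of 0.67, from 0.15 for CDC25B to 1.37 for E2F1.

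Several probes of a gene offered a further look at 10 of the 47 genes, with 14 further probes above background in at least 4 of 8 signals. For 6 of these probes, in 5 genes, the mean had the opposite sign to that of the brightest probe. The share of such probes over all genes was not computed. The 5 genes were CCNA2, CDC25B, CDK2, PLK1 and SMC2. The genes whose probes kept 1 sign were CDK4, AURKB and PTTG1 on the negative side and BIRC5 and BUB3 on the positive side. For CDK4 and BUB3 the further probe was dim, at mean log2 intensities of 7.31 and 7.23 against 11.29 and 14.49 for the brightest. With the mean over all probes of a gene, 34 of the 47 genes were below 0 and the median was -0.068.

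Markers of cell types moved between the arrays as well. The trophectoderm list had medians of 0.12, 0.44, -0.51 and 0.20 on arrays 1 to 4, the inner cell mass list 0.075, 0.064, 0.018 and 0.11, and the primitive endoderm list -0.080, -0.11, -0.064 and -0.087. Summed intensity of the 19 trophectoderm markers ranged from 89970 to 168258 at 12 months and from 122762 to 183248 at 16 months. For the 10 inner cell mass markers it ranged from 18578 to 27851 and from 21155 to 29026, and for the 13 primitive endoderm markers from 43920 to 72615 and from 40405 to 66163. The ranges of the 2 ages overlapped in each list. A sum mostly follows its brightest probes. In the primitive endoderm list FN1 had a mean log2 intensity of 15.33, and the next, HNF4A, 11.67. FN1 had ratios of 0.75, 1.07, -0.55 and -0.86 on arrays 1 to 4. Of the other lists, 7 of 15 cumulus and granulosa markers passed, with medians of 0.40, 0.24, -0.21 and -0.013 and summed intensities of 1214 to 2704 and 1585 to 2228. The 13 oocyte markers that passed had medians of -0.070, -0.13, 0.16 and 0.13, with sums of 11097 to 20313 and 12144 to 20728. The brightest of them were DPPA3, also in the inner cell mass list, and KPNA7, at mean log2 intensities of 13.00 and 12.00. The 9 of 13 sperm markers that passed had medians of -0.013, 0.052, 0.062 and 0.11, with sums of 1344 to 1524 and 1218 to 1381. The part of any of these lists in the ratios of the division genes was not tested. Of the 6 lists, only the oocyte list had medians below 0 on arrays 1 and 2 and above 0 on arrays 3 and 4. The division gene medians had these signs too, a match seen after looking at all lists and one that follows dye orientation. On arrays 1 to 4, 8, 8, 5 and 4 of the 13 oocyte markers were below 0. KPNA7 and ZP4 had the opposite signs on each array. What the match means was not tested.

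Genes of the same pathways outside the list were followed in 7 lists of 159 genes in all, of which 130 had a probe above background. None passed limma's adjusted threshold. Before adjustment 3 of the 130 were under 0.05, against 4.34% of all genes. Below 0 were 79 of the 130, or 60.8%, against 49.6% of all genes, with a median of -0.034. On all 4 arrays 9 of the 130 were below 0 and 3 above 0, against 5.44% and 4.57% of all genes. These shares over all genes also stand beside the counts of the single lists that follow. On arrays 1 to 4 their medians were -0.037, -0.0031, -0.036 and -0.060. On array 1 the division genes themselves had a median of -0.22.

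The pathway genes named below are the 2 per list with the smallest p, which leaves out some with a smaller SD, such as NCAPG (0.032). NUSAP1, a protein that stabilises spindle microtubules near chromosomes, had the steadiest ratios of those named. They were -0.44, -0.27, -0.36 and -0.41, all below 0, for a mean of -0.37 ± 0.077 with an adjusted p of 0.969 (limma). Its list of other motors, centrosome and cytokinesis genes had 18 of 25 genes below 0 and a median of -0.024. KIF14, a kinesin of cytokinesis in the same list, averaged 0.28 ± 0.30 with all 4 arrays above 0. In the list of other E2F, DP and MuvB subunits, 6 of 11 were below 0, with a median of -0.042. E2F3 and E2F2, activators of the same class as E2F1, were both below 0 on all 4 arrays, at -0.30 ± 0.23 and -0.19 ± 0.16. The E2F2 probe was near background, above it in 4 of 8 signals, and that of E2F3 in 7 of 8.

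Of the CDK inhibitors and other pocket proteins, 3 of 8 were below 0, with a median of 0.021. CDKN1A (p21), which binds and inhibits cyclin-dependent kinases, had ratios of 0.44, -0.038, 0.97 and 0.055 and a mean of 0.36 ± 0.46, led by arrays 1 and 3. CDKN2D, an inhibitor of CDK4 and CDK6, averaged 0.24 ± 0.30. Among other cyclins and kinases 21 of 30 were below 0, with a median of -0.065. There, CCNJ averaged -0.20 ± 0.18 with all 4 arrays below 0, and CCNL2, a cyclin linked to splicing, -0.20 ± 0.21. The CCNJ probe was dim and above background in 5 of 8 signals.

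The anaphase-promoting complex had 9 of 14 genes below 0, with a median of -0.049, led by its subunit ANAPC11 at -0.25 ± 0.43 and its inhibitor FBXO5 at -0.17 ± 0.43. Other kinetochore and checkpoint genes had 15 of 27 below 0, with a median of -0.021. The centromere protein CENPI was above 0 on all 4 arrays at 0.27 ± 0.17, and NSL1, a subunit of the MIS12 complex, below 0 on all 4 at -0.21 ± 0.21. Cohesin and other condensin subunits had 7 of 15 below 0, with a median of 0.0081. PDS5B, a regulator of cohesin, averaged 0.41 ± 0.45, and NCAPH2, a subunit of condensin II, 0.26 ± 0.35.

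Across the 16 alternative settings, the median of the division genes stayed below that of all genes. It ranged from -0.12 with median centring, where all genes had a median of -0.021, to -0.034 without array 1. The number of genes below 0 ranged from 27 to 36. For CCNA2, CCNB1 and the 7 genes below 0 on all arrays, 4 of the settings leave the mean ratio as it was, and leaving out an array cannot turn the sign of the 7. Over the remaining 8 settings the mean ratio ranged from -0.48 to -0.22 for CCNA2, from -0.30 to -0.14 for CDK4 and from -0.28 to -0.19 for PRC1.

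**Figure D5:**
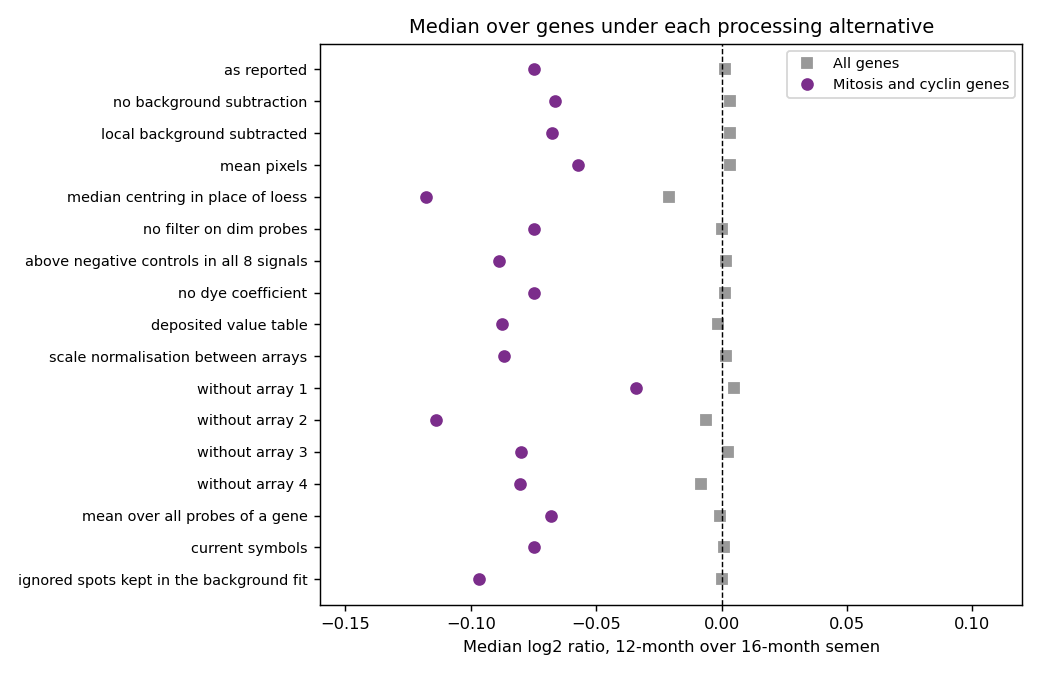
Median log2 ratio of 12 over 16 months under the main processing and each of the 16 alternatives, for the division genes and for all genes; settings without an array use fitted ratios. The division genes lie between -0.12 and -0.034, below all genes in each setting.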

How the data were processed

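Per the file headers, the deposited scanner files hold the intensity of each spot and its local background as median and mean over pixels in Cy3 and Cy5, with no background subtracted; no header names the scanner. RNA was, per the labels' protocols, amplified with a RiboAmp kit and labelled chemically, and amplification can change relative abundance. Limma is named, without a version, per the submitters' processing notes. The authors' deposited value table is on a log2 scale; its columns followed Cy5 over Cy3 of their own arrays (r from 0.986 to 0.994) with medians from -0.016 to -0.0019, and its background step is unknown. It was used as an alternative.

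Each array held 45220 spots, 43794 of them probes. Ignored spots (13, 10, 64 and 818) were removed before background correction. This step was chosen after seeing the data, because ignored spots on array 3 had local backgrounds up to 64410, and with them r with the deposited table was 0.855 on that array. Median intensities were corrected by normexp (offset 50), normalised by loess within arrays with control spots at weight 0, and set to 12 over 16 months. Separate channel levels came from Aquantile scaling. Background was the 95th percentile of the 153 negative controls in that array's channel; probes above it in at least 4 of 8 channel signals were tested (30986).

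Tests were two-sided and used lmFit and eBayes of limma 3.58.1 (R 4.3.3), with an age and a dye coefficient and Benjamini-Hochberg adjustment over all probes tested. The procedure was tested on simulated data. The platform annotation gives 1 symbol for 21790 probes and none for 22004; 20025 were current in RefSeq (ARS-UCD2.0), 1524 had a newer symbol and 241 found no match. A gene is its brightest probe. The members and lists were chosen with earlier results of these data known. Values on all arrays are given for genes with 1 sign on all 4 and for the 2 of each role group with the smallest p; other pathway genes are the 2 per list with the smallest p, values on single arrays for any other gene, such as E2F1, CDC20, UBE2C and AURKA, were chosen after seeing them. The 4 arrays shared a slide, and batches of fertilisation, amplification and labelling are unknown here. Alternatives varied background, pixels, normalisation, filter, dye term, source, scale, probe rule, symbols and arrays. The number of arrays limits the precision.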

Additional observations from a re-analysis of the deposited data

Results flagged for a closer look

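For 3 of the 45 division genes measured on all 4 arrays, 1 array lay far from the others. Its gap to the nearest passed Dixon's 95% critical value. For independent, normal values chance gives about 5%, and the count is near that rate. The share over all genes was not computed. In each of the 3 the far array was array 2, and how often array 2 is far over all genes was not computed. WEE1, the kinase that restrains CDK1, had a log2 ratio of 0.82 there and between -0.072 and 0.074 on the other arrays. NUF2, a subunit of the microtubule-binding kinetochore complex, had 0.23 there and between -0.36 and -0.27 elsewhere. PRC1, the bundler of midzone microtubules, had -0.48 there and between -0.19 and -0.14 elsewhere, with all 4 arrays on the same side of 0.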

How the results depend on the processing

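The count of probes past the adjusted threshold was 0 under every setting that kept all 4 arrays, and ranged from 0 to 385 when 1 array was left out (44 without array 3, 385 without array 4). Such a fit leaves a lone array in its dye orientation, and its spread is taken from the others. The number of division genes below 0 on every array was 7, and 4 with mean pixels and 4 with median centring; 2 of the 7 were shared in each case. It was 8 with the deposited value table, with all 7 among them. With the mean over all probes of a gene it was 6, and without the filter on dim probes 8 of 49. It has no counterpart when an array is left out. The cause of these shifts was not tested. The median of the list and the number of genes below 0 kept their direction under all settings. Single genes changed sign in 0 to 11 of the 47 cases per setting, most without array 3. Only CDK4, with mean pixels, and CDK6, with the deposited table, moved by more than their own SD over arrays. Keeping ignored spots in the background fit, an alternative added after seeing the data, gave a median of -0.097 with 33 genes below 0. Plain means in place of fitted ratios when an array is left out, also added after seeing the data, gave medians from -0.11 to -0.047. Both ages of a replicate lie on the same array, so the fit on ratios is itself the paired analysis. With 4 arrays, differences smaller than about 0.29 on the log2 scale are inside the interval of a typical probe, and dim probes have ratios drawn towards 0 by the offset.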
